A study of Mus musculus with 6 samples.

Results

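The smooth muscle contractile genes described here are 10 genes whose proteins build or switch on the contractile machinery of smooth muscle: Acta2, Actg2, Myh11, Myl9, Mylk, Tpm2, Tagln, Cnn1, Des and Smtn. They were followed across 6 microarrays of mouse intestinal tumors through the probe sets that the platform annotation gives to exactly 1 gene, that gene being one of the 10. This took 18 of the array's 22626 probe sets that are not controls. Of these 18, 13 were bright enough on at least 3 of the 6 arrays to be tested, and they covered all 10 genes. Across the array 13866 probe sets, covering 8125 genes, were tested. The rule goes by gene names and uses no intensity.

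The arrays held 3 duodenal tumors and 3 cecal tumors, each from a different mouse. All of the mice carried Apc1638N, a germline mutant allele of the tumor suppressor gene Apc that predisposes mice to intestinal tumors, and all lacked normal function of Rb1, the retinoblastoma gene (labelled Rb1 deficient). The 2 groups share both lesions and differ in the site of the tumor, and neither normal gut nor tumors with intact Rb1 were analysed here. Mouse ages, and how Rb1 was inactivated and in which cells, were not given in the sources used here. Per the labels, the duodenal group may include tumors that began at the pylorus, where the stomach empties. All 5 tested genes of a list of stomach and pyloric genes passed the test as higher in the duodenal group, as did 4.73% of all tested genes. Among them were the gastric secreted protein genes Gkn1, at least 145-fold higher, and Gkn2, at least 139-fold. The mucus peptide gene Tff2, at least 128-fold, and its relative Tff1, with a log2 difference of -4.38 (cecal minus duodenal), were others. The remaining gene, Gast, read 2805, 135 and 1320 in duodenal tumors 1 to 3 and 15.2, 8.1 and 3.9 in cecal tumors 1 to 3. Within its site duodenal tumor 2 was lowest and duodenal tumor 1 highest, the order described below for most members. Any link of Gast to the members was not tested. Gkn1, Gkn2, Tff2 and Gast were below the brightness limit in every cecal tumor. They were tested only because the duodenal tumors were bright, so their direction largely follows from that limit.

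Smooth muscle shortens when myosin filaments pull on actin filaments. Calcium bound to calmodulin activates myosin light chain kinase, which phosphorylates the regulatory light chain and so lets the myosin motor work, and myosin phosphatase reverses this step. In the gut wall these proteins are abundant in the muscularis mucosae and the outer muscle layers. Blood vessel walls and activated fibroblasts of the stroma also make some of them, above all smooth muscle alpha-actin. Many smooth muscle genes are switched on through the CArG box, a short element with an A- and T-rich core to which serum response factor binds, often together with its partner myocardin.

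The promoters of Acta2 and Myl9 are shown because they were the ones, of the 7 member promoters found in the RefSeq table, that held the CArG box letters just upstream of the start. Both are the 250 bases before the transcription start in RefSeq (build GRCm38.p6), 5′ to 3′ on the strand of the gene, with the matches in capitals. The Acta2 window is chr19:34255374-34255623 on the minus strand and the Myl9 window is chr2:156775214-156775463 on the plus strand.
Acta2: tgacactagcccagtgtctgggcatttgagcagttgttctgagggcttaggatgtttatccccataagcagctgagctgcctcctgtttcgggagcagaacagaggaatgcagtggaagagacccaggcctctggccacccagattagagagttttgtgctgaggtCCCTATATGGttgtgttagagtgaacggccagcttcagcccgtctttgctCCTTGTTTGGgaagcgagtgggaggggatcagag
Myl9: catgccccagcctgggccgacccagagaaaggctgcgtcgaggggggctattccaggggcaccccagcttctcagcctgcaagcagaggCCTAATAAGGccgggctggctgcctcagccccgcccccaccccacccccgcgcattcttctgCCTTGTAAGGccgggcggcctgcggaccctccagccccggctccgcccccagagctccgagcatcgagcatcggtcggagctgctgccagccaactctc
The CArG box was searched as CC, then 6 letters that are each A or T, then GG. The reverse complement of this pattern is the pattern itself, so each search covers both strands, and overlapping matches were allowed. Myl9 held 1 full match, CCTAATAAGG, 161 to 152 bases upstream of the start, and a second stretch with 1 other letter in the core, CCTTGTAAGG, at 99 to 90 bases. Acta2 held 2 stretches with 1 other letter in the core, CCCTATATGG at 84 to 75 bases and CCTTGTTTGG at 34 to 25 bases. A full match was present in 1 of 7 member promoters and in 1.47% of 32851 mouse promoters of the same length. With up to 1 other core letter allowed, 2 of 7 members and 8.59% of all promoters had a match. The windows of Des, Tpm2, Cnn1, Smtn and Mylk held neither form. These are letters in a short window and not measured binding.

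Across the arrays the median intensity was 164 to 182. Arrays of the same site correlated at 0.951 to 0.972 over all tested probe sets on the log2 scale, and arrays of different sites at 0.866 to 0.911. Duodenal tumor 2 and cecal tumor 2 had high Xist (4169 and 4486, against at most 61.6 on the other arrays), so these came from female mice and the other 4 from males. Sex was therefore balanced between the sites, with 1 female each.

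Myh11 encodes the smooth muscle myosin heavy chain, the motor of the thick filament and the most smooth-muscle-restricted gene of the group. Its brightest probe set read 559.6, 138 and 439.6 in duodenal tumors 1, 2 and 3, and 259, 235 and 249 in cecal tumors 1, 2 and 3. The 3 cecal tumors were almost equal. They lay between duodenal tumor 2 below them and duodenal tumors 1 and 3 above them. The duodenal mean was 379 ± 217 (SD, n = 3) and the cecal mean 248 ± 12.1 (SD, n = 3).

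Myl9 encodes the regulatory light chain that is phosphorylated to start contraction. It read 1499, 871 and 1181 in duodenal tumors 1 to 3 and 1025, 1115 and 1113 in cecal tumors 1 to 3. The cecal values again lay inside the duodenal range, with duodenal tumor 2 the lowest of the 6 arrays and duodenal tumor 1 the highest. The means were 1184 ± 314 in duodenal and 1084 ± 51.4 in cecal tumors (SD, n = 3 each).

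Mylk encodes myosin light chain kinase, the enzyme that acts on this light chain. Its brightest probe set read 1113, 693 and 996 in the duodenal and 890.4, 944 and 1029 in the cecal tumors. The order was as for Myl9: duodenal tumor 2 was lowest, duodenal tumor 1 highest, and the cecal tumors fell between them. A further Mylk probe set read 375, 184 and 349 in the duodenal and 335, 279.5 and 356 in the cecal tumors, with the same lowest and highest arrays. The third was dim, at 111, 64.9 and 99.2 against 86.4, 139 and 144.5, and was highest in cecal tumor 3.

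Acta2 encodes smooth muscle alpha-actin, the thin-filament actin that vascular muscle and myofibroblasts also use. It read 4373, 3029 and 4385 in the duodenal and 3272.5, 3713 and 4208 in the cecal tumors. Duodenal tumor 2 was the lowest of the 6 arrays, and duodenal tumors 1 and 3 were nearly equal and highest. The means were 3929 ± 779.5 and 3731 ± 468 (SD, n = 3 each). Actin genes are nearly alike in their coding sequence, and whether this probe set also binds other actin transcripts was not tested.

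Actg2 encodes smooth muscle gamma-actin, the actin typical of visceral muscle such as that of the gut wall. It read 823, 402 and 678 in the duodenal and 399, 649.9 and 656 in the cecal tumors. Here duodenal tumor 2 and cecal tumor 1 were both low and within a few units of each other, and the other 4 tumors lay well above them. The means were 634 ± 214 and 568 ± 146 (SD, n = 3 each). Of the 10 genes, Actg2 and Cnn1 were the ones whose cecal tumors also differed from each other by more than 1.5 times.

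Tpm2 encodes beta-tropomyosin, which lies along the actin filament. Its brightest probe set read 1376, 691 and 1127 in the duodenal and 1080.3, 881 and 979 in the cecal tumors. Its other tested probe set read 659.5, 362 and 531 against 583, 439 and 442. Both probe sets put duodenal tumor 2 lowest and duodenal tumor 1 highest of the 6 arrays.

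Tagln encodes transgelin, also called SM22-alpha, an actin-bundling protein that appears early in smooth muscle differentiation. It read 1620.5, 809 and 1548 in the duodenal tumors and 1172, 1170.5 and 1317 in the cecal tumors. Duodenal tumor 2 was the lowest of the 6, and both other duodenal tumors lay above every cecal tumor. The means were 1326 ± 449 and 1220 ± 84.3 (SD, n = 3 each).

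Cnn1 encodes calponin 1, an actin-binding protein that restrains the myosin motor and marks mature smooth muscle. It read 307, 87 and 181 in the duodenal and 112, 207 and 140.3 in the cecal tumors. The lowest value, in duodenal tumor 2, was below the 40th percentile of that array, the level taken here as the limit of a usable signal (92.4 to 101 across arrays). The other 5 arrays were above it.

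Des encodes desmin, the intermediate filament protein of muscle. It read 284, 145 and 133 in the duodenal and 152, 151 and 135 in the cecal tumors. Duodenal tumor 1 stood alone at the high end and the other 5 tumors lay close together, so Des was the member whose lowest duodenal tumor was number 3 and not number 2.

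Smtn encodes smoothelin, an actin-associated protein of contractile smooth muscle cells. It read 359, 219 and 235 in the duodenal and 163, 213.5 and 232 in the cecal tumors. Duodenal tumor 1 was highest and cecal tumor 1 lowest, and the other 4 tumors ran from 213.5 to 235. The means were 271 ± 76.5 and 203 ± 35.7 (SD, n = 3 each).

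The 5 member probe sets left out of the test were at or below the 40th percentile on all 6 arrays. They were a further probe set each of Acta2, Myh11 and Des and 2 of Tpm2, and their highest reading was 64.6.

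**Figure D1:**
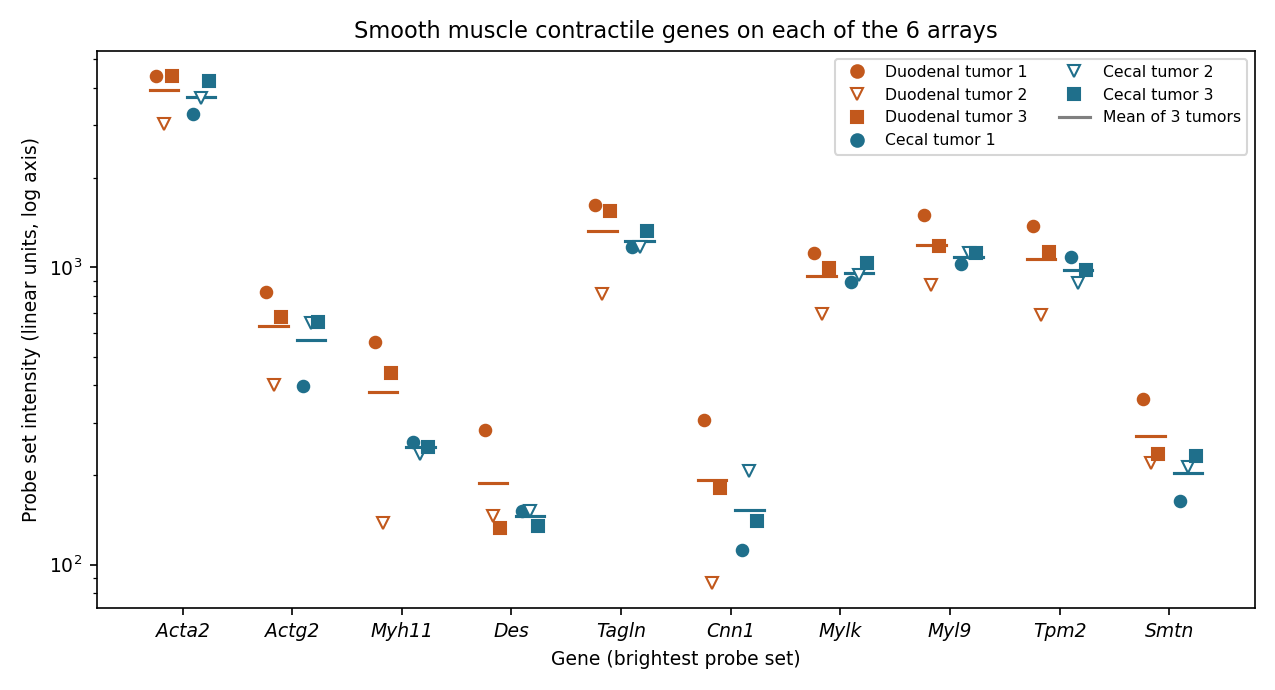
Intensity of the brightest probe set of each of the 10 genes on every array (log axis); orange marks are the 3 duodenal and blue marks the 3 cecal tumors, and bars are means of 3 tumors. Intensities of different probe sets cannot be ranked against each other. In 9 of the 10 genes duodenal tumor 2, the open orange triangle, is the lowest duodenal value, and the blue marks sit close together for Myh11, Des, Tagln and Myl9.

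The first question was whether the contractile genes differ between tumors of the 2 sites. Differences are cecal minus duodenal means of log2(intensity + 16), tested with limma, with p-values adjusted by Benjamini-Hochberg over all 13866 tested probe sets and a threshold of 0.05. The test treats the tumors as unpaired, and pairing by replicate number was run as an alternative. None of the 13 member probe sets passed (0 higher, 0 lower), where 9.3% of all tested probe sets did, 5.24% as higher and 4.07% as lower in cecal tumors. At an unadjusted p under 0.05 the count was also 0 of 13, against 23.3% of all tested probe sets. The 2 groups overlapped for every member probe set, whereas they did not overlap for 29.5% of all tested probe sets. In bulk tumor RNA, fewer muscle cells and less RNA per muscle cell cannot be told apart.

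The median difference over the 13 probe sets was -0.067 on the log2 scale, beside -0.042 over all tested probe sets. With array weights it was -0.23, with 0 of 13 called. Of the 13 differences 10 were negative, as were 55.9% over the array. Among the brightest probe sets of the 10 genes, the estimates nearest to 0 were those of Mylk, at 0.056 with a 95% interval of -0.37 to 0.48 (limma adjusted p = 0.892), Tagln, at -0.056 with an interval of -0.63 to 0.52 (adjusted p = 0.924), and Acta2, at -0.061 with an interval of -0.45 to 0.33 (adjusted p = 0.872). As a ratio, the Acta2 interval ran from 0.731 to 1.26 times the duodenal level. The estimates for Tpm2 (-0.067), Myl9 (-0.092) and Actg2 (-0.13) also had adjusted p-values above 0.8.

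The members farthest from 0 were Myh11 and Smtn. The Myh11 difference was -0.38 with an interval of -1.37 to 0.60 (limma adjusted p = 0.652). The Smtn difference was -0.37 with an interval of -0.88 to 0.13, and its adjusted p of 0.365 was the lowest of the 13. Des stood at -0.26 (adjusted p = 0.63) and Cnn1 at -0.19 (adjusted p = 0.831). The 95% interval lay wholly within a 2-fold change in either direction for 11 of the 13 probe sets, as for 11348 of 13866 tested. It reached past a 2-fold lower cecal level for Myh11 and Cnn1. The smallest difference that would have passed for those 2 genes with 3 tumors per site was not tested.

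**Figure D2:**
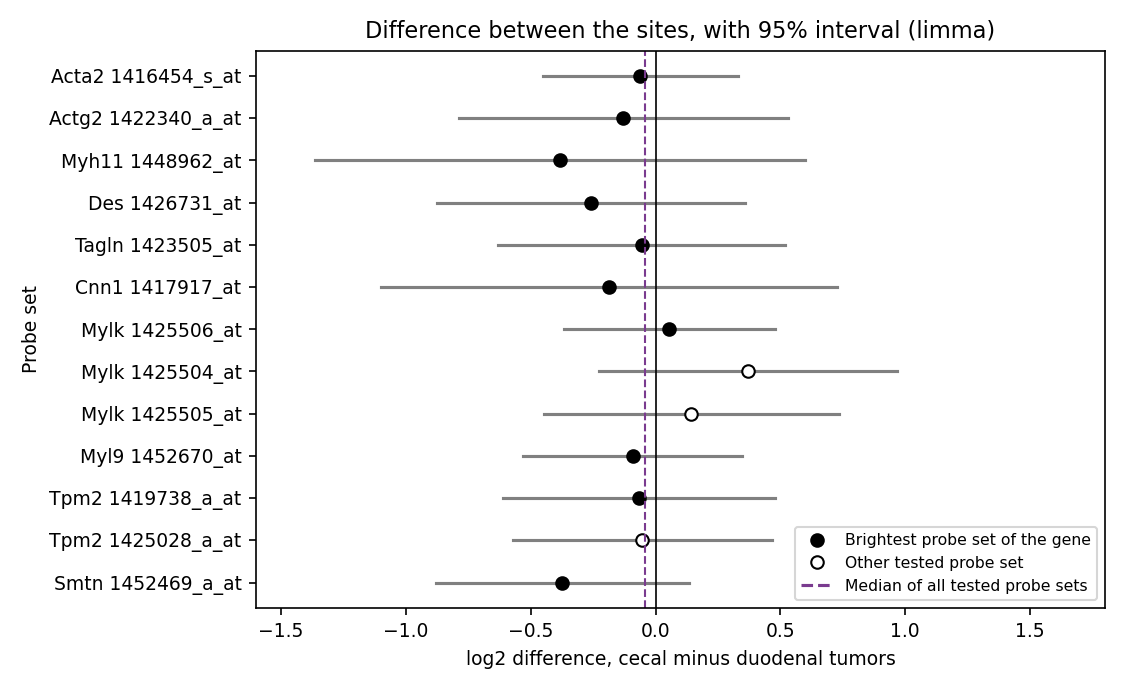
Cecal minus duodenal difference of log2(intensity + 16) for the 13 tested member probe sets, with the limma 95% interval (3 tumors per site). All 13 intervals hold 0, and the Myh11 and Cnn1 intervals are the widest; the dashed line is the median of all tested probe sets, -0.042.

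The spread was not the same inside the 2 sites. Among the duodenal tumors the highest intensity was 4.05 times the lowest for Myh11, 3.53 times for Cnn1, 2.14 times for Des, 2.05 times for Actg2 and 2.00 times for Tagln. Among the cecal tumors the same ratios were 1.10, 1.84, 1.13, 1.64 and 1.13. The median ratio over the 10 genes was 2.00 in duodenal and 1.19 in cecal tumors, whereas over all tested genes it was 1.28 in both. The Acta2 spread was the smallest of the 10 in the duodenal group, at 1.45 times, and Myl9 had the smallest in the cecal group, at 1.09 times.

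Counted by gene, 9 of the 10 members varied at least 1.5 times among duodenal tumors, against 24.4% of all tested genes, and 5 of 10 varied at least 2 times, against 7.73%. Among cecal tumors 2 of 10 varied at least 1.5 times, against 24.3% of all tested genes, and 0 of 10 varied at least 2 times, against 6.81%. The SD of log2 intensity was larger in the duodenal than in the cecal tumors for all 10 genes, as it was for 49.8% of all tested genes. Its median was 0.51 in duodenal and 0.12 in cecal tumors, and 0.18 at both sites over all tested genes. These ratios and limits were chosen after the values were seen, the 10 genes move together and so are not 10 separate observations, and the difference in spread between the sites was not tested.

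**Figure D3:**
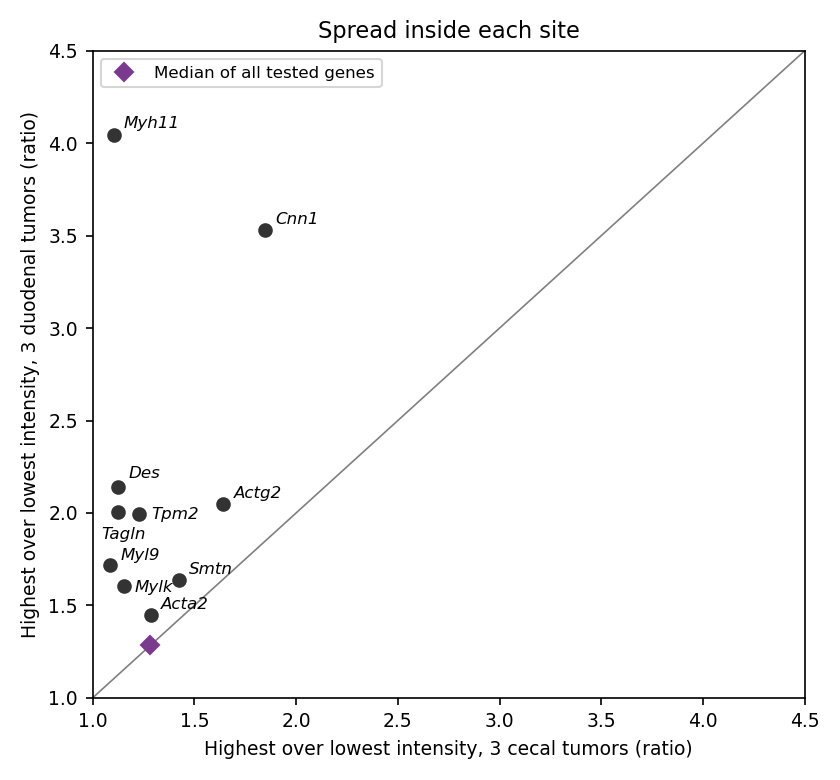
Highest over lowest intensity among the 3 duodenal tumors (vertical axis) against the same ratio among the 3 cecal tumors (horizontal axis), 1 point per gene. All 10 genes lie above the line of equal spread, Myh11 and Cnn1 farthest; the diamond is the median of all tested genes, 1.28 at both sites.

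The duodenal spread followed the same tumors from gene to gene. Duodenal tumor 2 was the lowest duodenal tumor for 9 of 10 members, against 37.8% of all tested genes, and the lowest of all 6 tumors for 7 of 10, against 16.8%. Duodenal tumor 1 was the highest duodenal tumor for 9 of 10, against 30.4%, and the highest of all 6 for 9 of 10, against 14.9%. The exception at the top was Acta2, where duodenal tumor 3 was marginally higher. The level of duodenal tumor 2 minus the mean of duodenal tumors 1 and 3 was -1.73 on the log2 scale for Myh11, -1.29 for Cnn1, -0.96 for Tagln, -0.87 for Actg2 and -0.84 for Tpm2. It was smallest in size for Des (-0.39) and Smtn (-0.38). The median over the members was -0.72, and over all tested genes it was -0.0039.

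No cecal tumor held one end of the range for as many members. Cecal tumor 1 was the lowest cecal tumor for 6 of 10 members, cecal tumor 2 for 3 and cecal tumor 3 for 1. Over all 8125 tested genes the counts for cecal tumors 1 to 3 were 3386, 2117 and 2622. Cecal tumor 3 was the highest cecal tumor for 5 of 10, against 36.1% of all tested genes. Each gene centred on its own mean over the 6 arrays, the members' mean profile was 0.54, -0.47 and 0.16 in duodenal tumors 1 to 3 and -0.20, -0.023 and -0.0069 in cecal tumors 1 to 3 on the log2 scale.

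Among the members, duodenal tumor 2 therefore decided 1 call. Without it, Myh11 passed the test with a cecal minus duodenal difference of -0.96 (limma adjusted p = 0.0148), the median over the members moved from -0.067 to -0.35, and 1 of 13 member probe sets was called. Without duodenal tumor 1 the median was 0.12 and 0 were called. On the 4 male arrays alone, a setting added after the data were seen, the median was -0.31 and again 0 were called. The female mouse and the low tumor are the same array in the duodenal group, so sex and tumor cannot be told apart there. In the cecal group the female mouse's tumor had a member profile of -0.023, between those of the 2 males.

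Other genes of the contractile pathway come from lists of known smooth muscle genes. Of 20 further filament and adhesion proteins of smooth muscle, 15 were on the array and 13 were tested, and none passed (0 higher, 0 lower, where 10.4% of all tested genes passed, 5.7% higher and 4.73% lower in cecal tumors). The median difference of these 13 was -0.12, beside -0.049 over all tested genes, and 10 of 13 were negative against 56.5%. Duodenal tumor 2 was the lowest duodenal tumor for 7 of these 13, against 37.8% of all tested genes, with a median level of -0.13 relative to the other duodenal tumors. That this differs from the members was not tested. Tpm1, alpha-tropomyosin, read 3332.5, 2763 and 3552 in the duodenal and 2628, 3146 and 3397 in the cecal tumors. Actn1, the actin crosslinker alpha-actinin 1, differed by -0.15 (limma adjusted p = 0.548). For 2 of the 13 the sites had no overlap, beside 2538 of all 8125 tested genes. Both were higher in every cecal tumor. They were Cald1, the actin-binding protein caldesmon, at 1972, 1595 and 1627 against 2305, 2106 and 2699 (0.45, adjusted p = 0.0926, the lowest p of the list), and Ldb3, a Z-disc protein of muscle (0.84, adjusted p = 0.17). For Ldb3 the sites were all but tied, at 212.6 in duodenal tumor 2 and 212.7 in cecal tumor 1. Many of the listed proteins are also made by epithelium and fibroblasts.

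Fhl1, a LIM-domain protein found in muscle and other cells, read 3937, 2068 and 3638 in the duodenal and 2316, 1420 and 1818 in the cecal tumors. Tumor 2 was the lowest of its site in both groups. The difference was -0.76 ± 0.27 (SE; limma adjusted p = 0.125) and passed at 0.00987 with the replicate number as a block and at 0.0209 without duodenal tumor 2.

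Of 22 genes for kinases, phosphatase subunits, channels and receptors that control contraction, 16 were on the array and 7 were tested. Where 10.4% of all tested genes passed, 1 of these 7 did. This was Ppp1r14a, which encodes CPI-17, a phosphorylation-dependent inhibitor of myosin phosphatase that keeps the light chain phosphorylated. It read 9.4, 15.8 and 11.8 in the duodenal and 209, 138 and 138 in the cecal tumors. All 3 duodenal readings were below the 40th percentile of their arrays and all 3 cecal readings above it, so cecal tumors were at least 1.58-fold higher (limma adjusted p = 0.000684). The fitted log2 difference was 2.63 and is no measure of size here, since it ran from 1.55 with an offset of 64 to 3.61 with an offset of 1. A probe set that dim at one site enters the test only if it is bright throughout the other, so the direction largely follows from the filter. The call held in each of the 17 other settings in which the gene was tested, where the highest adjusted p was 0.00528.

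The other tested genes of this list were the small GTPase Rhoa, which activates the kinase that inhibits myosin phosphatase (0.38, limma adjusted p = 0.0821), the calcium pump Atp2a2 (0.19, adjusted p = 0.275), the catalytic phosphatase subunit Ppp1cb (0.085, adjusted p = 0.695), Rock1, Gucy1b1 and Dmd. Of the 16 genes, 7 were at or below the 40th percentile on all 6 arrays, among them Pln, which encodes the calcium pump regulator phospholamban, and Prkg1, the cGMP-dependent protein kinase.

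Of 14 transcription factors of smooth muscle or its precursors, 6 were tested and 0 passed, where 10.4% of all tested genes did. Srf, serum response factor itself, read 368, 322.5 and 294.5 in the duodenal and 306, 321.5 and 303 in the cecal tumors, a difference of -0.074 (limma adjusted p = 0.805). A further Srf probe set read 246.5, 132 and 177 in the duodenal and 194, 176.5 and 173 in the cecal tumors (difference 0.011, adjusted p = 0.985). The probe sets disagreed on the order of the tumors: in the further one duodenal tumor 2 was lowest and duodenal tumor 1 highest of the 6, as for most members, and in the brightest one duodenal tumor 3 was lowest. Myocd, myocardin, was at or below the 40th percentile on all 6 arrays, at 24.1 to 61.9. Klf4, a repressor of smooth muscle genes in vascular cells that is also abundant in gut epithelium, differed by 0.20 (adjusted p = 0.754). Tcf21, a factor of mesenchymal precursors, differed by 0.55 (adjusted p = 0.249). For 2 of the 6 tested the sites had no overlap, beside 2538 of all 8125 tested genes. Both were higher in every cecal tumor: Nkx2-3, at 48.7, 60.6 and 117.7 against 205, 159 and 120.3 (adjusted p = 0.0895), and Mrtfa (0.25, adjusted p = 0.322). Barx1, not tested, was lower in every cecal tumor, at 98, 122 and 153 against 42.6, 79.8 and 18.9.

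**Figure D4:**
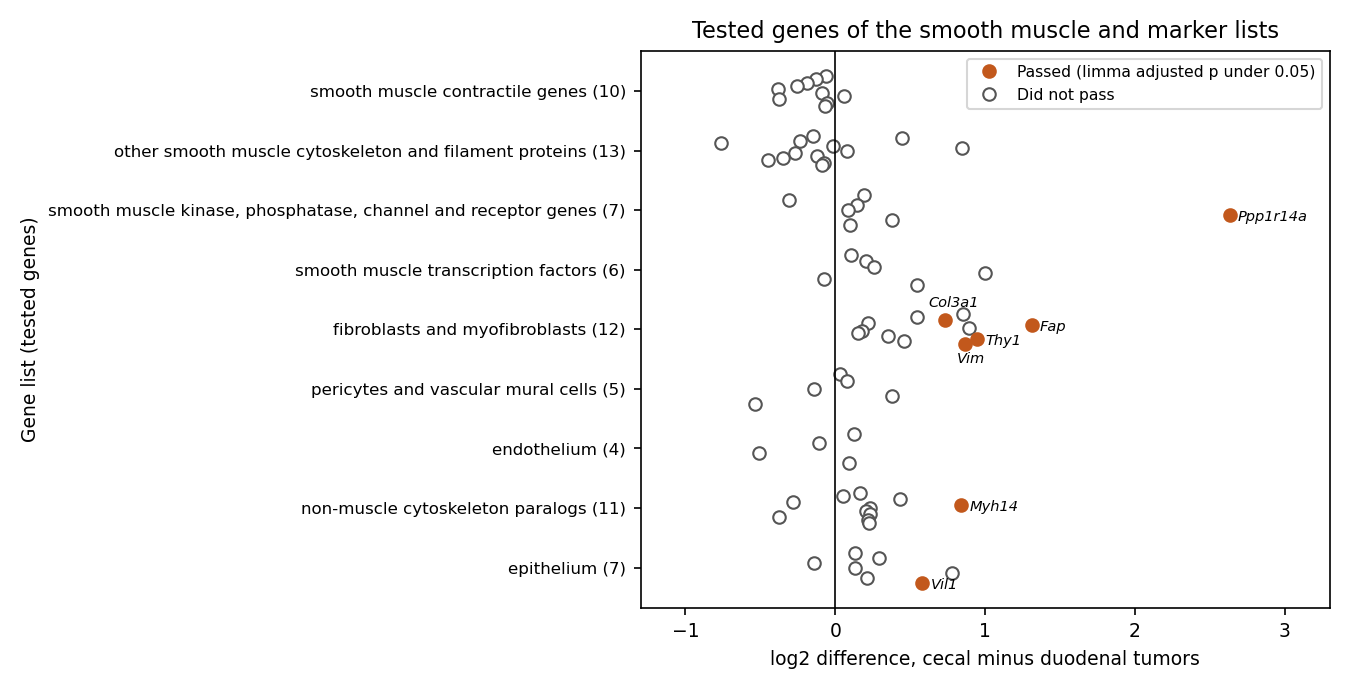
Cecal minus duodenal difference (log2) of every tested gene in the 10 members and in 8 comparison lists; filled points passed the test and open points did not. The members lie between -0.38 and 0.056, while 4 fibroblast genes, Ppp1r14a, Myh14 and Vil1 passed as higher in cecal tumors.

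Other cells of the tumor can make contractile proteins, so their markers were read beside the members. All 12 genes of a list for fibroblasts and myofibroblasts were tested, with a median difference of 0.64. Of these, 4 passed as higher in cecal tumors and 0 as lower, against 5.7% and 4.73% of all tested genes. The 4 were Vim, the intermediate filament protein vimentin (0.86 ± 0.15, SE; limma adjusted p = 0.00981), the collagen gene Col3a1 (0.73 ± 0.15; adjusted p = 0.0173), the fibroblast surface protease Fap (1.31, at least 1.44-fold, being dim in all duodenal tumors; adjusted p = 0.0262) and the surface protein Thy1 (0.94; adjusted p = 0.0326). The direction of Fap largely follows from the filter, as for Ppp1r14a. The call of Vim held in every alternative run. That of Col3a1 was lost without duodenal tumor 1 or cecal tumor 1, that of Fap without duodenal tumor 3 or any 1 cecal tumor, and that of Thy1 without any 1 array but duodenal tumor 1 and when dim probe sets were kept in the test (adjusted p = 0.0579). On the male arrays alone 1 of the 12 passed, Vim. With array weights 7 of the 12 passed. With the replicate block 6 of the 12 passed, and the fibronectin gene Fn1 (0.89, adjusted p = 0.0609) then did so at 0.0116. The matrix proteoglycan gene Dcn differed by 0.22 (adjusted p = 0.546).

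The summed intensity of the 12 fibroblast genes was 16094 to 20118 in the duodenal and 24463 to 29573 in the cecal tumors, and these ranges do not overlap. The summed intensity of the 10 members was 7085 to 12315 in the duodenal and 8525 to 10058 in the cecal tumors, and these do. The fibroblast sum was lowest in duodenal tumor 1, at 16094, where the member sum was highest, at 12315. Duodenal tumor 2, with the lowest member sum, had a fibroblast sum of 17577, in the middle of its site. The part that fibroblast RNA has in the members' levels was not tested.

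Blood vessels carry smooth muscle and pericytes of their own. Of 7 pericyte and mural cell genes 5 were tested and 0 passed, where 10.4% of all tested genes did. Their median difference was 0.029. The receptor gene Pdgfrb differed by 0.38 (limma adjusted p = 0.124), Notch3 by -0.14 (adjusted p = 0.622) and Rgs5, a regulator of G-protein signalling in pericytes, by -0.54 (adjusted p = 0.154). The brightest Rgs5 probe set read 1999, 1242 and 1493 in the duodenal tumors, the same order as most members, and 1239.9, 1109 and 873 in the cecal tumors. Its difference passed with array weights (-0.68, adjusted p = 0.0431), and its 3 other tested probe sets did not give that order. The median of the mural genes in duodenal tumor 2 relative to the other duodenal tumors was -0.026. Of 6 endothelial genes 4 were tested and 0 passed, beside the same 10.4%. The adhesion molecule Pecam1 differed by 0.092, the sialomucin Emcn by -0.11 and the VEGF receptor Kdr by -0.51 (limma adjusted p = 0.796, 0.759 and 0.304). Over the 4 tested endothelial genes the median difference was -0.0099. The summed intensity of all 6 was 582 to 750.0 in duodenal and 586 to 695 in cecal tumors.

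The muscle layers also hold interstitial cells of Cajal, which pace the gut muscle, and enteric neurons and glia. Of 3 Cajal cell genes, Kit and Ano1 were on the array. Kit read 197 ± 26.3 in the duodenal and 229 ± 31.7 in the cecal tumors (SD, n = 3 each), and the limma adjusted p was 0.536. Ano1 differed by -0.86 (adjusted p = 0.0645), with no overlap between the sites, and passed without cecal tumor 2 (-1.10, adjusted p = 0.03) and on the male arrays alone (-1.18, adjusted p = 0.0381). Among 14 neuronal and glial genes 11 were on the array and 2 were tested. Where 10.4% of all tested genes passed, 1 of these 2 did. This was S100b, a calcium-binding protein of enteric glia, at 120, 162 and 223.5 in the duodenal and 20.9, 21.2 and 14.6 in the cecal tumors. All 3 cecal readings were below the 40th percentile of their arrays, so the direction largely follows from the filter, as for Ppp1r14a. The duodenal level was at least 1.70-fold the cecal one (limma adjusted p = 0.00138). Of the 11, 6 were at or below the 40th percentile on all 6 arrays, the pan-neuronal gene Elavl4 and the glial gene Gfap among them. Vip, the vasoactive intestinal peptide of enteric neurons, was not tested, since 2 of the 6 arrays were above the limit. It read 36.2, 2.3 and 43.5 in the duodenal and 344, 49 and 194 in the cecal tumors, higher in every cecal tumor, the opposite direction to S100b. Nos1, the nitric oxide synthase of enteric neurons, was also higher in every cecal tumor, though dim on all 6 arrays (37.6 to 48.1 against 61.2 to 66.8).

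Tac1, the substance P precursor made by enteric neurons and some endocrine cells, was the other gene tested in that list. It read 738, 170.0 and 588 in the duodenal and 343.5, 194 and 317 in the cecal tumors, so that duodenal tumor 2 was lowest and duodenal tumor 1 highest of the 6, as for most members. Its difference was -0.58 (limma adjusted p = 0.534), and -1.20 (adjusted p = 0.0292) without duodenal tumor 2.

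Striated muscle was not seen. Of 11 striated muscle genes 10 were at or below the 40th percentile on all 6 arrays, and Ryr1, the skeletal muscle calcium release channel, never exceeded 3.1. Acta1, skeletal alpha-actin, was the one tested, at 182 to 283 in the duodenal and 199 to 272 in the cecal tumors (0.077, limma adjusted p = 0.870).

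The non-muscle relatives of the members give a further comparison, since they are widely made outside muscle. Of 12 such genes 11 were on the array and tested, and 1 passed, where 10.4% of all tested genes did. This was Myh14, a non-muscle myosin heavy chain of epithelia (0.84, limma adjusted p = 0.0116, lost without cecal tumor 2 and on the male arrays alone). Actb and Actg1, the cytoplasmic actins, differed by 0.16 (adjusted p = 0.430) and 0.049 (adjusted p = 0.844), the latter without a stable sign, and Myl12b, a non-muscle regulatory light chain, by 0.23 (adjusted p = 0.218). Duodenal tumor 2 was the lowest duodenal tumor for 4 of these 11 relatives. Their median ratio of highest to lowest was 1.25 in duodenal and 1.13 in cecal tumors, beside 2.00 and 1.19 for the members.

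Epithelial markers were read in the same way. All 7 epithelial genes were tested and 1 passed, where 10.4% of all tested genes did. This was Vil1, the brush border actin bundler villin, at 0.58 (limma adjusted p = 0.0264). The call was lost without any 1 array but duodenal tumor 3, with no intensity trend (adjusted p = 0.0516) and on the male arrays alone (adjusted p = 0.177). The keratin genes Krt8, Krt19 and Krt18 differed by 0.21, 0.13 and -0.14 (adjusted p = 0.283, 0.516 and 0.530). The summed intensity of the 7 was 51880 to 59402 in duodenal and 61502 to 65176 in cecal tumors. Duodenal tumors 1 and 2 had epithelial sums of 51880 and 52288. Their member sums, 12315 and 7085, were the highest and the lowest of the 6. Such sums weigh the brightest probe sets most, and the part that epithelial content has in the members' levels was not tested.

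**Figure D5:**
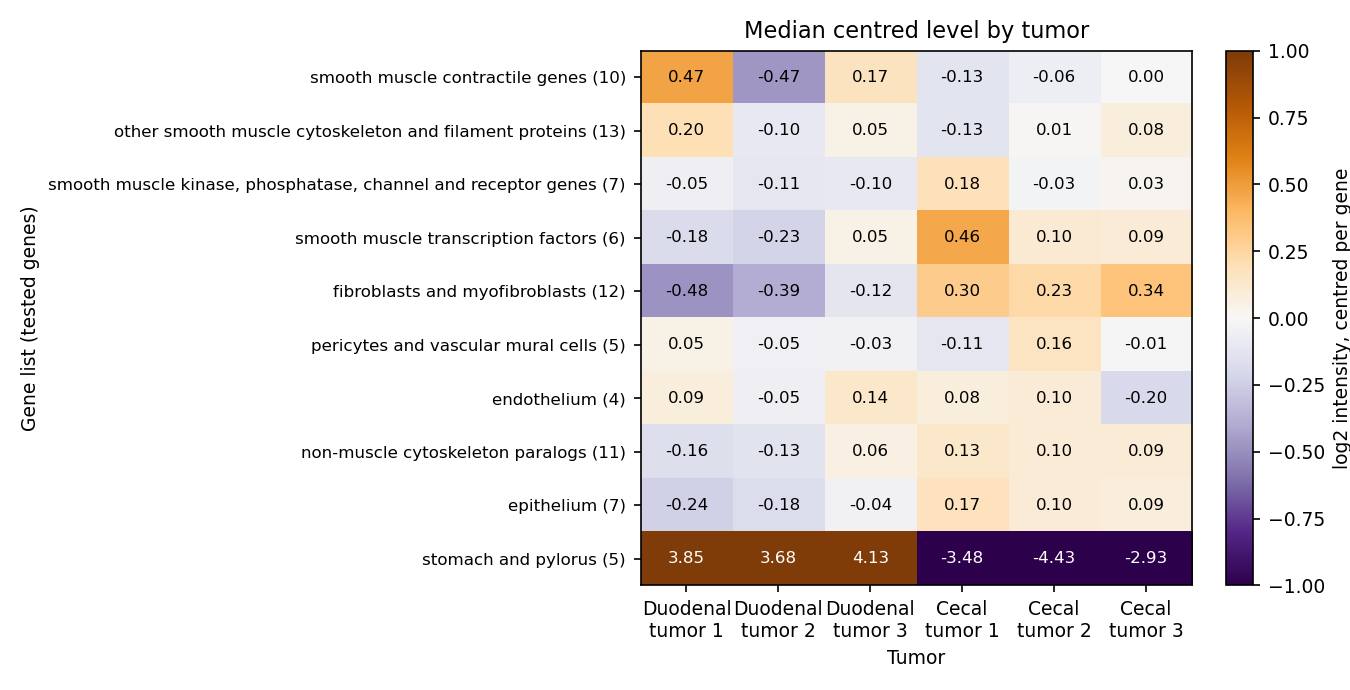
Median over each gene list of log2 intensity centred per gene, in each of the 6 tumors; the number of tested genes is in brackets, and colours stop at -1 and 1, so the stomach row is off the scale. The members run from 0.47 in duodenal tumor 1 to -0.47 in duodenal tumor 2 and stay between -0.13 and 0.00 in the cecal tumors, while the fibroblast row is negative in every duodenal and positive in every cecal tumor.

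The genes whose centred levels followed the members' mean profile most closely over the 6 arrays were ranked by the root mean square distance in log2 units. The nearest outside the 10 members were B3galt4, a galactosyltransferase (0.0744), Sel1l3 (0.0835), the epithelial sodium channel subunit Scnn1a (0.106), Cadps2, a regulator of vesicle release (0.110), Abr, a regulator of small GTPases (0.115), and Osbp, an oxysterol-binding protein (0.115). The median distance over 8115 genes was 0.375. The members' own distances ran from 0.0827 for Myl9 to 0.339 for Myh11. With 6 arrays such a ranking is a description, and the genes it names include epithelial ones.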

How the data were processed

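RNA from 3 duodenal and 3 cecal tumors was measured on 1 Affymetrix array each. The authors deposited linear intensities per probe set, which the submitters' processing notes credit to MAS5. The version, scaling target and any detection calls of MAS5 were not given in the sources used here. Trimmed array means were alike (499 to 499.9), and no further normalization was added. There were no unused columns.

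Of 22690 probe sets, 64 were controls, 20380 named 1 gene, 691 several and 1555 none. Probe sets above their array's 40th percentile on at least 3 of 6 arrays were tested as log2(intensity + 16), which understates changes of dim genes, with limma 3.58.1 in R 4.3.3 (eBayes with intensity trend, two-sided), adjusted by Benjamini-Hochberg at 0.05. A gene is represented by its brightest probe set; at least 1 other tested probe set of Actb, Atp2a2, Ppp1cb, Srf and Tpm1 had the opposite sign, none passing. A bound ("at least") is the bright group's mean against the dim group's 40th percentiles. Intervals are 95%. Figures used matplotlib 3.10.9.

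All 10 members are named. From each list, the genes that passed (up to 4, lowest p) and the 3 brightest tested are named. Myocd, Rock1, Gucy1b1, Dmd, Pln, Prkg1, Elavl4, Gfap and Ryr1 were added after their values were seen. So were Cald1, Ldb3, Vip, Nos1, Gast, Nkx2-3, Mrtfa and Barx1. The members and lists were chosen with earlier results of these data known. The labels call the samples biological replicates from different mice.

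Replicate numbers recur at both sites. For same-numbered tumors, deviations from the site means had correlations of 0.273, 0.299 and 0.203, and for other pairs -0.2 to -0.026, so the numbers were taken to pair the samples. This comes from the data alone. The main test has no block, so its p-values and intervals leave this pairing out. The block was run as an alternative. The procedure was tested on simulated data.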

Additional observations from a re-analysis of the deposited data

How the results depend on the processing

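With 3 tumors per site, differences under about 2-fold in the most variable members were not detectable, and dim readings limit Cnn1 and 5 further member probe sets. The count of tested probe sets past the threshold was 1290. It was 1939 with array weights, 1571 with the replicate block, 695 on the male arrays alone, and 658 to 1194 when single arrays were left out. The member count stayed at 0 under each alternative that kept all 6 arrays and on the male arrays alone, and was 0 to 1 when single arrays were left out. The replicate block changed no member call; among the list genes named, Fn1 and Fhl1 gained one.

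Of 176 values of member genes, 159 kept their sign and call, 1 gained a call (Myh11 without duodenal tumor 2, -0.96) and 16 changed sign without passing. The cause was not tested. Array weights moved Myh11 from -0.38 to -0.74, Tpm2 from -0.067 to -0.31 and Tagln from -0.056 to -0.23, none passing. Sign changed for Mylk with array weights (-0.062) and on the male arrays (-0.14), for Klf4 on the male arrays (-0.014), for Actg1 with quantile normalization (-0.0013), and with the mean of a gene's probe sets for Actb (-0.021), Tpm1 (0.027) and Atp2a2 (-0.12).

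When single arrays were left out, these differences changed sign, none of them passing the test. The ranges were -0.24 to 0.029 for Acta2, -0.42 to 0.10 for Actg2, -0.45 to 0.062 for Des, -0.37 to 0.12 for Tagln, -0.62 to 0.21 for Cnn1, -0.14 to 0.19 for Mylk, -0.29 to 0.093 for Myl9 and -0.35 to 0.14 for Tpm2. They were -0.0052 to 0.16 for Actg1, -0.15 to 0.0077 for Srf, -0.054 to 0.28 for Acta1, -0.18 to 0.031 for Tpm1, -0.11 to 0.56 for Klf4 and -0.18 to 0.0059 for Emcn. The filter at the 60th percentile gave no value for Myh11, Des, Cnn1 or Smtn.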
